A study of Mus musculus with 6 samples.

Results

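The Hox cluster genes are the homeobox genes named Hoxa, Hoxb, Hoxc or Hoxd followed by a paralog number. They were picked by symbol alone, as every row whose gene ID matched a symbol of that form, which gave 39 of the 35275 gene IDs in the count table. The 39 are 11 Hoxa, 10 Hoxb, 9 Hoxc and 9 Hoxd genes. A gene is detected here when it has 10 counts or more in at least 3 of the 6 libraries, and 12 of the 39 Hox genes were.

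The libraries came from Melb-a cells, an immortal melanoblast line of C57BL/6J genotype from skin, and all of them are of this line. All cells were moved to DMEM with 10% serum, 2 nM NDP-alpha-MSH, an analog of the melanocyte stimulating hormone, and 200 nM of the phorbol ester PMA, so the controls carry these agents too. For 48 h that medium held the vehicle DMSO (3 samples) or 10 µM iBRD9 (3 samples), a ligand of the BRD9 bromodomain; BRD9 belongs to one of the SWI/SNF assemblies that remodel chromatin. The series describes 3 independent samples and does not say whether they were separate cultures, so p-values measure the spread between these samples. A single compound and dose was used, so its actions on BRD9 and on other proteins cannot be told apart.

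Hox genes encode transcription factors that give cells their position along the body axis. They lie in 4 clusters, each on its own chromosome, and within a cluster the genes stand in the order in which they are used from head to tail. Genes at the same place in different clusters share a paralog number, from 1 at the anterior end to 13 at the posterior end. Hox proteins bind DNA together with TALE homeobox partners of the Pbx and Meis families. Polycomb complexes hold unused clusters silent and MLL methyltransferases of the trithorax group keep used ones active. Melanoblasts arise from the neural crest, and neural crest cells of the trunk express Hox genes of the level they come from.

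The libraries held between 22846391 and 29680952 counts, at which 3 counts are worth 0.0974 to 0.130 CPM (read counts scaled to the size of the library, here with the TMM factors of edgeR). Of the melanocyte lineage markers 10 of 11 were detected and Ednrb was not, with 0.209 CPM with DMSO and 0.0880 with iBRD9. Of the 10 tested, 1 was higher with iBRD9 (Dct, a melanin enzyme gene, by 0.31 on the log2 scale, edgeR adjusted p = 0.00959), 6 were lower and 3 were not called. Brd9 itself had 37.4 ± 4.07 CPM with DMSO and 38.7 ± 0.0510 with iBRD9 (SD, n = 3), a log2 difference of 0.05 (edgeR, adjusted p = 0.624). Tyr, which encodes the key enzyme of melanin production, fell from 537 ± 14.5 to 87.7 ± 3.71 CPM (log2 fold change -2.61), and the glial and melanocyte factor Sox10 fell by 0.92 on the log2 scale. Mitf, the melanocyte regulator, had a log2 fold change of -0.10 (edgeR, adjusted p = 0.184), which passed the test without DMSO replicate 1 (-0.15, adjusted p = 0.00587) and was 0.00157 with scaling by library size alone. That DMSO library stood apart: its chi-square per degree of freedom against the other DMSO libraries was 29.2 and 37.5, while those differed from each other by 3.06.

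Hoxa genes made up 83.6% of all 11547 Hox counts in the 6 libraries and Hoxb genes 16.1%. In the Hoxa cluster 8 of 11 genes were detected, among them Hoxa2, Hoxa3, Hoxa5, Hoxa6, Hoxa7, Hoxa9 and Hoxa10. In the Hoxb cluster 4 of 10 were, namely Hoxb4, Hoxb8, Hoxb9 and Hoxb13. No gene of the Hoxc cluster (0 of 9) or of the Hoxd cluster (0 of 9) was detected: the whole Hoxc cluster had 18 counts over the 6 libraries and the whole Hoxd cluster 20. The detected share, 30.8% of Hox genes, stood beside 38.9% of all gene IDs, 57.2% of protein-coding genes and 39.2% of a list of 51 other homeobox genes.

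By paralog number, the detected genes reached group 13. A single member was detected in each of the paralog groups 2 to 8: Hoxa2, Hoxa3, Hoxb4, Hoxa5, Hoxa6, Hoxa7 and Hoxb8. Group 9 had 2 detected members, Hoxa9 and Hoxb9, group 10 had Hoxa10 and group 13 had Hoxb13. Group 11 held 10 counts in all and group 12 none (0 counts). Hoxb4 was the detected gene of paralog group 4, where Hoxa4 had 3, 1 and 0 counts with DMSO and 7, 6 and 5 with iBRD9. Hoxb5, Hoxb6 and Hoxb7 had at most 1 count in a library although they lie between the detected Hoxb4 and Hoxb8.

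**Figure D1:**
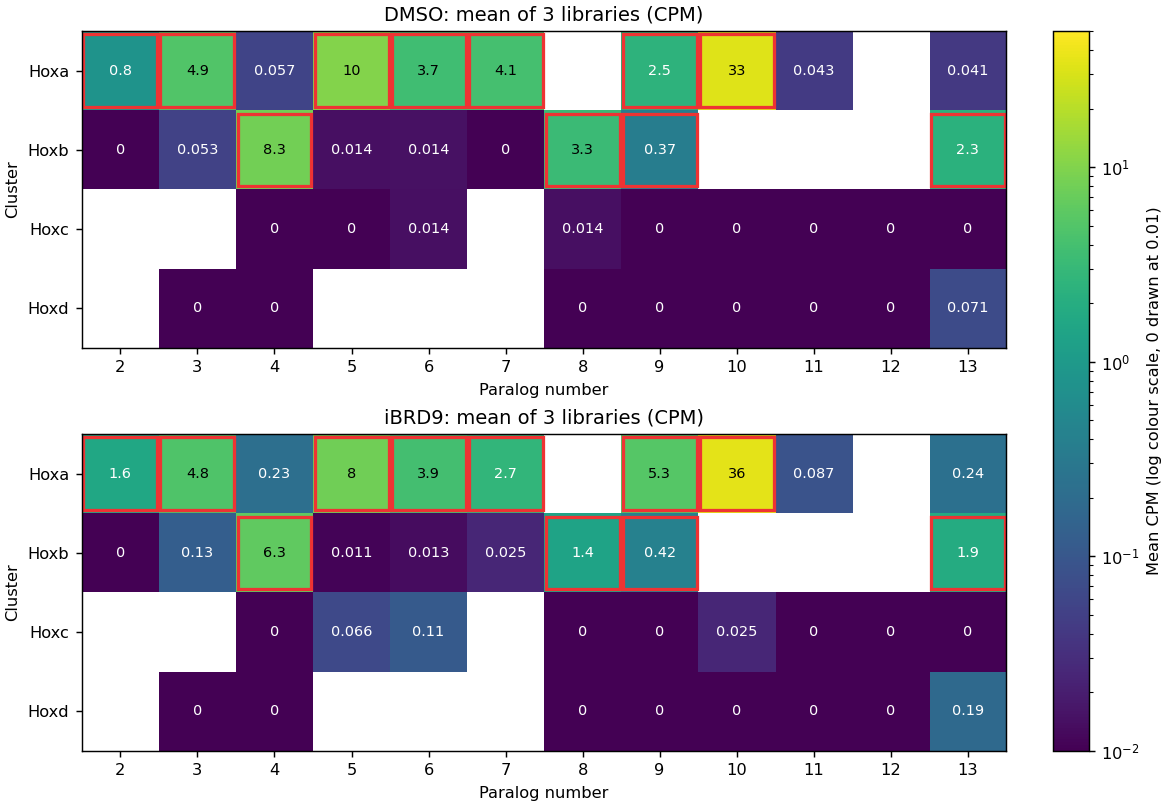
Mean TMM-scaled CPM of the Hox genes of paralog groups 2 to 13 by cluster (vertical axis) and paralog number (horizontal axis), with DMSO above and iBRD9 below, 3 libraries each, on a log colour scale; red boxes mark detected genes and white cells have no gene. The boxes fill most of the Hoxa row, 4 cells of the Hoxb row and none of the Hoxc and Hoxd rows.

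The 15 Hox genes at 0 counts in every library were Hoxb1, Hoxb2, Hoxc4, Hoxc9, Hoxc11, Hoxc12, Hoxc13 and every Hoxd gene except Hoxd13. A count of 0 allows up to 3 counts in a library, or 0.0974 to 0.130 CPM, and this limit covers counting error only. The other 12 undetected genes had at most 9 counts in any library. Just outside the detection rule were Hoxa13, with 0, 1 and 2 counts with DMSO against 9, 3 and 7 with iBRD9, and Hoxd13, with 2, 0 and 3 against 6, 8 and 1. Just inside it was Hoxb9, with 11, 11 and 5 counts against 17, 8 and 9.

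**Figure D2:**
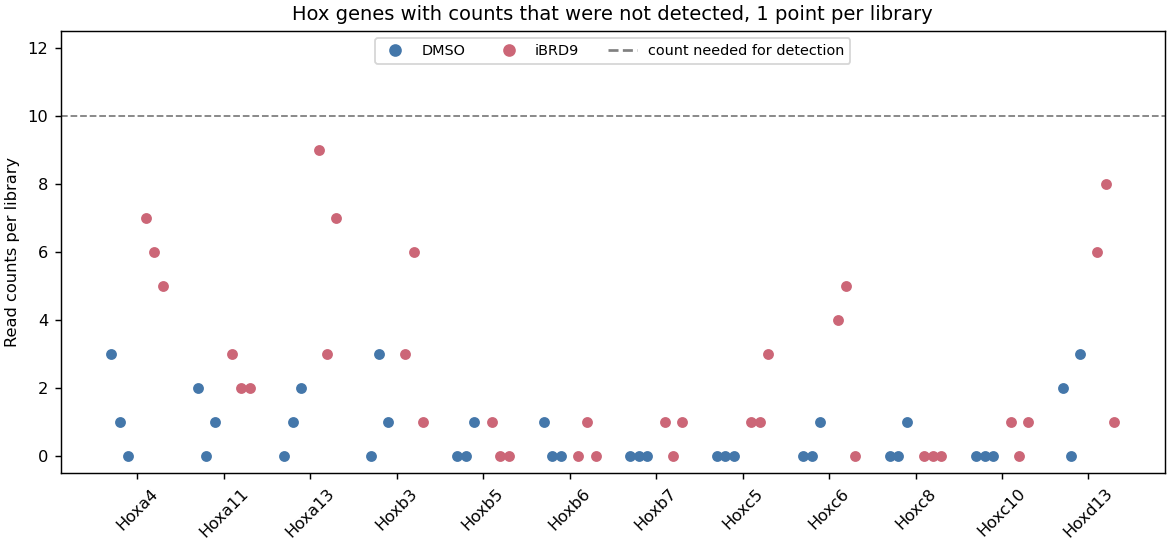
Read counts per library (vertical axis) of the 12 Hox genes that had counts but were not detected, 1 point per library, DMSO in blue and iBRD9 in red, with the detection count of 10 as a dashed line. All points lie at 9 or below, and the iBRD9 points of Hoxa4, Hoxa13 and Hoxc5 lie above their DMSO points.

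The undetected Hox genes were left out of the main test by its filter on low counts, but their sum was higher with iBRD9. Together the 27 had 8, 5 and 10 counts in the DMSO libraries and 36, 32 and 21 in the iBRD9 libraries. In CPM these sums were 0.347, 0.197 and 0.421 against 1.17, 1.28 and 0.886, a ratio of 3.45 between the group means. The same ratio over all 21547 undetected genes of the table was 1.26. Hoxa4, Hoxa13, Hoxb3, Hoxc6 and Hoxd13 gave most of the added counts. Once the filter on low counts was removed, the undetected Hox genes that had counts were tested, and Hoxa13 alone passed. It rose by 2.38 on the log2 scale (edgeR, adjusted p = 0.0359), a value made from 22 counts. The edgeR adjusted p was 0.0767 for Hoxa4, 0.427 for Hoxb3, 0.140 for Hoxc6 and 0.262 for Hoxd13. These sums are a description of very few reads, and no test was made of them.

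The next comparison asks which detected Hox genes differed between iBRD9 and DMSO. Of the 12, Hoxa9 rose, Hoxa5, Hoxa7, Hoxb4 and Hoxb8 fell, and 7 did not pass the test. A gene is called here at an adjusted p under 0.05 in edgeR's quasi-likelihood test over all 13602 tested genes. Calls were common in this table: 60.7% of all tested genes were called, 29.8% higher and 30.9% lower. The groups did not overlap in those 5 Hox genes, against 68.0% of all tested genes. Hox genes were thus called no more often (5 of 12) than the table as a whole. The number that fell was 2 with scaling by library size alone, 2 without iBRD9 replicate 2 and 1 without iBRD9 replicate 3, and the number that rose was 3 without DMSO replicate 1. Calls over the whole table moved too, from 8262 with all libraries to 10159 without DMSO replicate 1. They were 6835 without iBRD9 replicate 2 and 6815 without iBRD9 replicate 3. The median log2 fold change of the 12 was -0.16, beside 0.01 over all tested genes. It was -0.077 without iBRD9 replicate 2, -0.26 with a filter at 1 CPM and -0.053 with library size alone, where the median over all genes was 0.11.

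**Figure D3:**
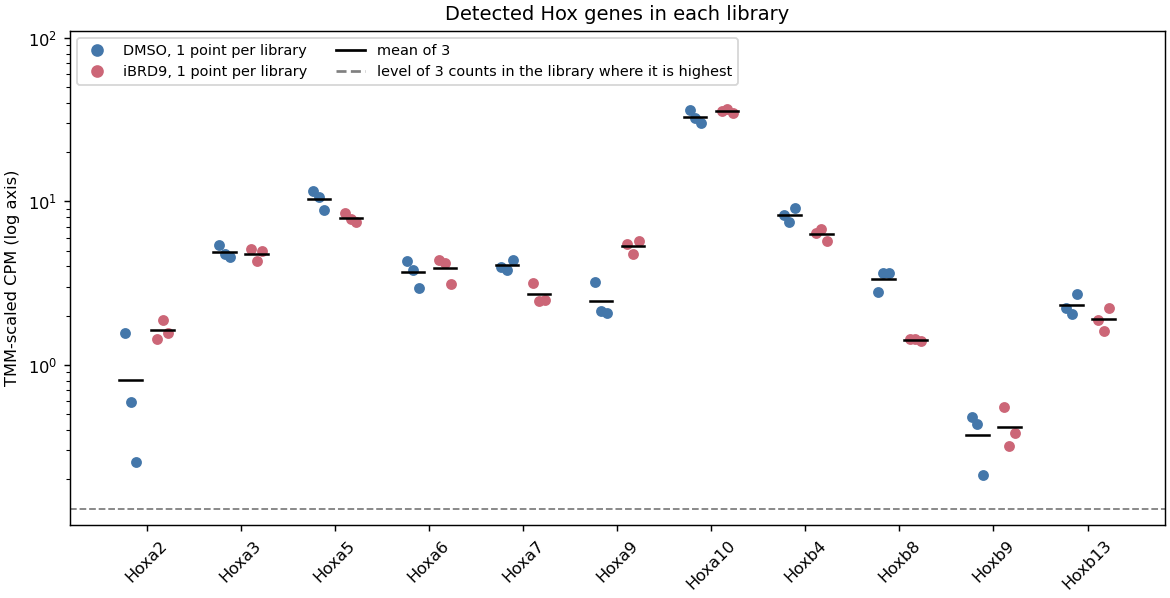
TMM-scaled CPM (vertical log axis) of 11 detected Hox genes (horizontal axis), 1 point per library, DMSO in blue and iBRD9 in red, with black bars for the means of 3 libraries. The 2 groups separate in Hoxa5, Hoxa7, Hoxa9, Hoxb4 and Hoxb8, and the 3 DMSO points of Hoxa2 are spread widely.

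Hoxa9 (ENSMUSG00000038227), a posterior Hox gene known for its part in blood progenitors and leukemia, was the detected member that rose. It had 3.21, 2.13 and 2.06 CPM in the DMSO libraries and 5.45, 4.76 and 5.70 CPM in the iBRD9 libraries, which were all above every DMSO library. The means were 2.47 ± 0.644 and 5.30 ± 0.486 CPM (SD, n = 3), and the log2 fold change from edgeR was 1.11 (SE 0.194, adjusted p = 0.00143). The highest DMSO value was that of the library that stood apart, and without it the log2 fold change was 1.34 (adjusted p = 2.27e-07). Hoxa9 was called under all 13 alternative settings, with log2 fold changes from 1.00 to 1.34.

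Hoxb8 (ENSMUSG00000056648), a gene of the thoracic region, fell the most among the called Hox genes. It had 2.78, 3.63 and 3.62 CPM with DMSO and 1.43, 1.44 and 1.39 CPM with iBRD9, so the iBRD9 libraries were close to each other and all below the DMSO libraries. The means were 3.34 ± 0.490 and 1.42 ± 0.0247 CPM (SD, n = 3), and the log2 fold change from edgeR was -1.23 (SE 0.183, adjusted p = 0.000626). It too was called under all 13 settings, with log2 fold changes from -1.35 to -1.13.

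Hoxa7 (ENSMUSG00000038236), the neighbor of Hoxa9 on its anterior side, went the other way from Hoxa9. It had 3.99, 3.78 and 4.38 CPM with DMSO and 3.15, 2.44 and 2.49 CPM with iBRD9, with no overlap. The means were 4.05 ± 0.303 and 2.69 ± 0.395 CPM (SD, n = 3), and the log2 fold change from edgeR was -0.58 (SE 0.161, adjusted p = 0.0135). The call was lost without iBRD9 replicate 2 (adjusted p = 0.0610) and without iBRD9 replicate 3 (adjusted p = 0.0551). In the annotation 20.4% of its exon length is shared with the antisense gene Hoxaas3, whose own log2 fold change was -0.24 (adjusted p = 0.593).

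Hoxa5 (ENSMUSG00000038253), which patterns the neck and the lung, came second in mean level per length with DMSO, where its range overlapped that of Hoxa6, and with iBRD9 the means were 4.24 ± 0.269 and 4.45 ± 0.766 CPM per kb (SD, n = 3), within their spread. It had 11.6, 10.6 and 8.80 CPM with DMSO and 8.50, 7.84 and 7.51 CPM with iBRD9, and the groups were only just apart. The means were 10.3 ± 1.43 and 7.95 ± 0.505 CPM (SD, n = 3), and the log2 fold change from edgeR was -0.38 (SE 0.126, adjusted p = 0.0299). The call was lost with scaling by library size alone (-0.27, adjusted p = 0.108) and without DMSO replicate 2 (0.0852), iBRD9 replicate 2 (0.0879) or iBRD9 replicate 3 (0.10).

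Hoxb4 (ENSMUSG00000038692), known in blood stem cells, had 8.29, 7.53 and 9.06 CPM with DMSO and 6.39, 6.80 and 5.74 CPM with iBRD9. All iBRD9 libraries were below the DMSO libraries. The means were 8.29 ± 0.765 and 6.31 ± 0.535 CPM (SD, n = 3), and the log2 fold change from edgeR was -0.39 (SE 0.121, adjusted p = 0.0217). Its call was lost with library size alone (-0.29, adjusted p = 0.0716) and without DMSO replicate 3 (0.0763), iBRD9 replicate 1 (0.0569) or iBRD9 replicate 3 (0.0835).

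Among the 7 genes not called, Hoxa2, a gene of the hindbrain and second pharyngeal arch, had the widest spread. It had 36, 15 and 6 counts with DMSO, or 1.56, 0.591 and 0.253 CPM, and 44, 47 and 37 counts with iBRD9, or 1.43, 1.88 and 1.56 CPM. DMSO replicate 1 thus lay among the iBRD9 libraries and the other two lay below them. The log2 fold change was 1.02 (SE 0.488, adjusted p = 0.0996, edgeR). It was 1.91 without DMSO replicate 1 (adjusted p = 4.11e-05) and 1.34 with limma-voom (adjusted p = 0.0397), both past the threshold, but 0.60 without DMSO replicate 3 (adjusted p = 0.211). The annotation shares 15.0% of Hoxa2 exon length with Gm28308 on the same strand.

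Hoxa10 (ENSMUSG00000000938), which acts in the lumbar region and the uterus, had the highest level per length of the Hox genes. It had 36.2, 32.4 and 30.2 CPM with DMSO and 35.8, 36.5 and 34.7 CPM with iBRD9, which overlap. The log2 fold change was 0.12 (SE 0.080, adjusted p = 0.237, edgeR), and it was 0.19 without DMSO replicate 1 (adjusted p = 0.00859), 0.058 without DMSO replicate 3 (adjusted p = 0.582) and 0.22 with library size alone (adjusted p = 0.0607). Paralog group 10 held 5215 of the 11547 Hox counts.

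The other members described here that were not called overlapped between the groups. Hoxb13, a posterior gene best known from the prostate, had 2.32 ± 0.336 and 1.91 ± 0.319 CPM (log2 fold change -0.28, edgeR adjusted p = 0.253). Hoxa3, a gene of the pharyngeal arches, and Hoxa6, of the thoracic region, had log2 fold changes of -0.03 and 0.08, whose sign changed when 1 library was left out. Hoxb9 was near the detection limit at 0.374 ± 0.143 and 0.417 ± 0.12 CPM, with a log2 fold change of 0.18 (adjusted p = 0.718).

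Summed over a cluster, the Hoxb level was lower with iBRD9 and the Hoxa level overlapped. Hoxb genes summed to 13.8, 13.8 and 15.7 CPM with DMSO and 10.4, 10.4 and 9.83 CPM with iBRD9. Most of that difference lay in the called genes Hoxb4 (means 8.29 and 6.31 CPM) and Hoxb8 (3.34 and 1.42 CPM), while Hoxb9 and Hoxb13 were not called. Hoxa genes summed to 69.8, 60.5 and 56.7 CPM with DMSO and 66.8, 64.5 and 63.1 CPM with iBRD9. Hoxa10, which was not called, gave the largest part of these sums (means 32.9 and 35.7 CPM). All Hox genes together gave 76.8 ± 5.98 and 75.4 ± 2.20 CPM (SD, n = 3). The Hoxa share of Hox counts was 83.4%, 81.5% and 78.1% with DMSO and 86.1%, 85.4% and 86.3% with iBRD9. In RNA from whole cultures, fewer cells that express a gene and less RNA of it per cell cannot be told apart.

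Count ratios between genes of a cluster, taken within a library, do not depend on how libraries are scaled. The ratio of Hoxa9 to Hoxa7 counts was 0.804, 0.562 and 0.471 with DMSO and 1.73, 1.95 and 2.29 with iBRD9, so every iBRD9 library was above every DMSO library. These are ratios of counts, not of levels, since the genes differ in exon length. The ratio of Hoxa9 to Hoxa10 was 0.0886, 0.0658 and 0.0682 against 0.152, 0.130 and 0.164. The ratio of Hoxb8 to Hoxb4 was 0.335, 0.482 and 0.400 against 0.223, 0.212 and 0.243. Of 5 such ratios computed, each separated the groups. The two-sided exact permutation p of each was 0.1, also after Benjamini-Hochberg adjustment, the smallest that 3 against 3 libraries allow. Each of the 5 pairs held a called Hox gene, and other pairs were not computed. With Hoxa9 higher and Hoxa7 lower without overlap, their ratio had to separate the groups. The ratios thus restate the calls and add no separate support to them.

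**Figure D4:**
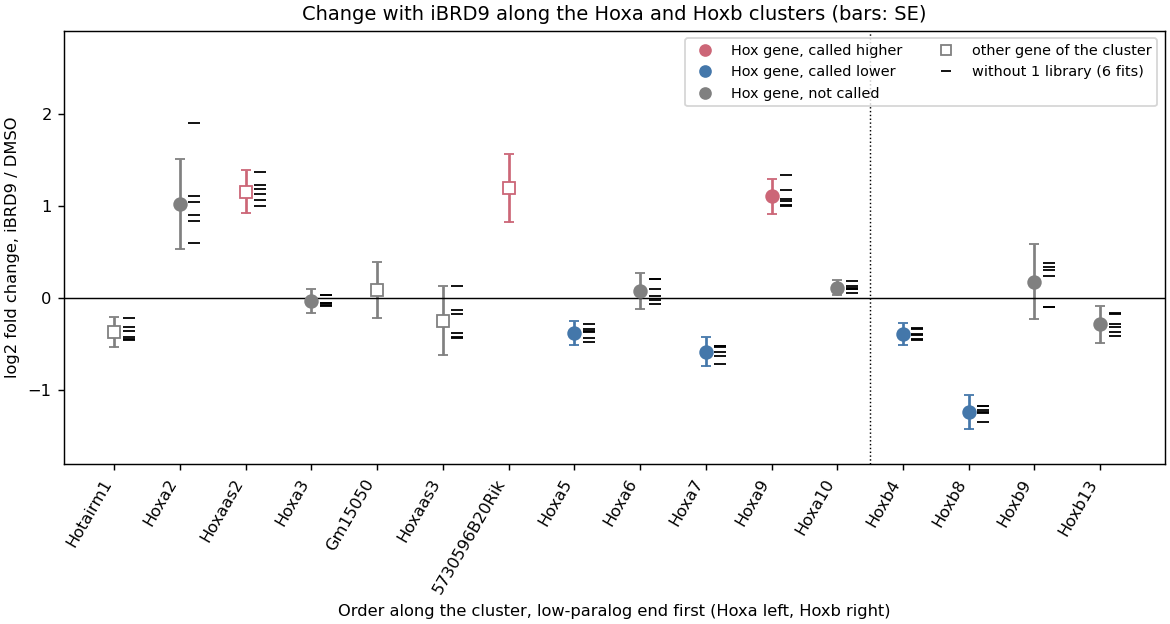
Log2 fold change (vertical axis, bars are SE) of tested genes along the Hoxa and Hoxb clusters, low-paralog end first (horizontal axis); filled circles are Hox genes, open squares other genes, red is called higher, blue called lower and grey not called. Black ticks show the fits without 1 library for all genes but Gm15050 and 5730596B20Rik. The called Hox genes stay on their side of 0 in each, as do Hoxa2, Hoxa10 and Hoxb13, while Hoxa3, Hoxa6 and Hoxb9 cross it.

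Along the chromosome, genes that rose and fell stood side by side. From the anterior end, Hoxa5 fell, Hoxa6 was not called, Hoxa7 fell, Hoxa9 rose and Hoxa10 was not called. In the Hoxb cluster, Hoxb4 and Hoxb8 fell, with Hoxb5, Hoxb6 and Hoxb7 nearly at 0 between them. Hox genes share regulatory regions and overlapping transcripts, and nothing in the labels says that the kit kept strand. Reads of a gene and of its antisense partner can then not be separated.

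Of the noncoding genes of the clusters, Hoxaas2, an antisense transcript over Hoxa3, rose. It had 33, 27 and 20 counts with DMSO and 74, 56 and 67 with iBRD9, or 1.11 ± 0.298 and 2.49 ± 0.303 CPM (SD, n = 3). Its log2 fold change was 1.16 (SE 0.234, adjusted p = 0.00297, edgeR), and it was called under every alternative setting run for it. Hotairm1, a noncoding transcript of the anterior Hoxa cluster, had 146, 123 and 108 counts with DMSO and 123, 93 and 106 with iBRD9 (log2 fold change -0.37, adjusted p = 0.0814). Hoxaas3 had 0.588 ± 0.243 and 0.498 ± 0.117 CPM. Hotair had 0 counts and Hottip at most 2 counts in a library.

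A count over every other annotated gene between the cluster ends was added after values had been seen. It found 22 such genes in the table, of which 5 were tested, 2 higher and 0 lower (edgeR). Over all tested genes 29.8% were higher and 30.9% lower. The 2 higher genes inside the clusters were Hoxaas2 and 5730596B20Rik. The latter had 19, 11 and 8 counts with DMSO and 48, 28 and 22 with iBRD9 (log2 fold change 1.20, edgeR adjusted p = 0.0216). 5730596B20Rik overlaps Hoxa3 on the other strand, and 27.1% of Hoxa3 exon length is shared with other annotated genes. Hoxa3 itself had 124, 121 and 109 counts against 158, 108 and 117. Genes that flank the clusters went both ways, with Cbx5, which encodes heterochromatin protein 1 alpha, up by 0.76, Jazf1 by 0.41 and Lnpk by 0.25 on the log2 scale, and with Snx10 (-0.76), Nfe2l1 (-0.75) and Hibadh (-0.52) lower. With the noncoding genes, 14 of these 25 listed genes were tested, 4 rose and 3 fell, and their median was -0.05.

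The levels of different Hox genes were compared per kilobase of exon, with lengths from the GENCODE M21 annotation. With DMSO, Hoxa10 had 10.1 ± 0.927 CPM per kb (SD, n = 3), a level above 64.3% of all tested genes over the 6 libraries. Next came Hoxa5 with 5.51 ± 0.761, Hoxa6 with 4.24 ± 0.804 and Hoxb4 with 3.23 ± 0.298 CPM per kb. The rest were at 0.145 (Hoxb9) to 1.41 (Hoxa7) CPM per kb. The DMSO ranges of genes next to each other in this order separated at 4 places, between Hoxa10 and Hoxa5, Hoxb4 and Hoxa7, Hoxb13 and Hoxa3, and Hoxa9 and Hoxb9. The other neighbors in the order overlapped. With iBRD9, Hoxa9 went from 0.442 to 0.950 CPM per kb and Hoxb8 from 1.27 to 0.539. The annotated exons of Hoxa9 and Hoxa3 span 5580 and 6014 bases, long for Hox genes, which lowers their level per kb wherever part of that length is not used.

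The promoter windows of the 3 called Hox genes with the largest change are shown, a choice made after their values were seen, so that the neighbors Hoxa9 and Hoxa7 can be set beside Hoxb8. Each runs from 250 bases before to 50 after a RefSeq start on GRCm38.p6, read 5′ to 3′ on the gene's strand, with each CG dinucleotide in capitals. The Hoxa9 window is chr6:52227321-52227620 on the minus strand, the Hoxa7 window chr6:52218524-52218823 on the minus strand and the Hoxb8 window chr11:96281655-96281954 on the plus strand.
Hoxa9: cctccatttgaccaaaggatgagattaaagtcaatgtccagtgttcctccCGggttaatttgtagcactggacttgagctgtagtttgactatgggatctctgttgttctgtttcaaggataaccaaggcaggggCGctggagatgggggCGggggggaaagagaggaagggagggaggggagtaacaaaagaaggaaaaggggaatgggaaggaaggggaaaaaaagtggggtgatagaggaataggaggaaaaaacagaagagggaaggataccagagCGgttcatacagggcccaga
Hoxa7: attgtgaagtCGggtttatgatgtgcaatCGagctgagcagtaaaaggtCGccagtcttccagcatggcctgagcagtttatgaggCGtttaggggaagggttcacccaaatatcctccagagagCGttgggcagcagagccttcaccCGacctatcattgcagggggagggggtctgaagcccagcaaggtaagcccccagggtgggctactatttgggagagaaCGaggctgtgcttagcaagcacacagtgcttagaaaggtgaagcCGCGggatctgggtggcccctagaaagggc
Hoxb8: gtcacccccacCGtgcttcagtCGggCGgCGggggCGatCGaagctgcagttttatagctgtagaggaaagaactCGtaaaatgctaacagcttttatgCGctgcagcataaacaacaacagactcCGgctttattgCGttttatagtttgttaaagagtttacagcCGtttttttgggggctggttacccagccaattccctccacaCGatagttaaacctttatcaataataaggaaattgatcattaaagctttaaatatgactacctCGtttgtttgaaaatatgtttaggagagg

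The windows differ in base composition. That of Hoxa9, which rose, held 4 CG dinucleotides, while those of Hoxa7 and Hoxb8, which fell, held 9 and 13, and those of Hoxa5 and Hoxb4 held 29 and 14. The ratio of observed to expected CG was 0.28 for Hoxa9, 0.41 for Hoxa7, 0.97 for Hoxb8, 1.02 for Hoxa5 and 0.59 for Hoxb4, where the median of all 32851 promoter windows was 0.38. With 1 gene that rose, this is a description only. RefSeq windows were at hand for 22 of the 39 Hox genes, 9 of them detected, and made 24 windows. The median ratio was 0.63 in windows of detected Hox genes and 0.66 in those of undetected ones. Which start the cells used was not measured.

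Motifs were searched on both strands in the same windows. TATAAA, the TATA box, occurred in 4 of 24 Hox windows and in 13.6% of all windows. It was present 2 times in the Hoxb8 window, at 199 and 110 bases before the start and both on the strand opposite to the gene, and was not in those of Hoxa5, Hoxa7, Hoxa9 and Hoxb4. TGATTGAT, a Hox and Pbx composite, occurred in 2 of 24 Hox windows (0.746% of all windows), those of Hoxa2 and Hoxd11, and TGATTTAT in 0 (0.977% of all). The E-boxes CATGTG and CACGTG occurred in 5 Hox windows each, against 14.2% and 7.15% of all windows. The AP-1 motif TGACTCA occurred in 1 and the cAMP response element TGACGTCA in 0, against 5.20% and 1.79%. CACGTG and TGACGTCA read the same on both strands and were counted once per position. Matches of different motifs did not overlap in the Hox windows, while in Hoxb1 (CATGTG) and Hoxd13 (TATAAA) a pair of matches of the same motif did. A match is a description of letters, not a bound site.

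Hox proteins act with TALE partners, and here 13 of 17 TALE genes were tested, of which 2 rose and 5 fell (edgeR), with a median log2 fold change of -0.21. For comparison, 29.8% of all tested genes rose and 30.9% fell. Pbx4 had 2.73, 3.51 and 2.74 CPM with DMSO and 8.44, 6.48 and 7.17 with iBRD9, or 1.30 on the log2 scale (SE 0.162, edgeR adjusted p = 0.000258), and Meis3 rose by 0.50. The largest falls were in Irx3 (-1.17), Irx5 (-1.08) and Tgif1 (-0.70), TALE genes that are not the classical Hox partners. Among the classical partners, Meis2 fell by 0.38 and Pbx3 fell by 0.36.

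Genes of the MLL and trithorax group, which keep Hox loci active, were all tested, and of the 20, 8 rose and 4 fell, with a median of 0.10. Kmt2c had 90.4, 84.9 and 88.8 CPM with DMSO and 185, 177 and 177 with iBRD9, or 1.03 on the log2 scale (SE 0.055, edgeR adjusted p = 4.94e-06). Kmt2d (0.79), which missed the threshold with no filter (adjusted p = 0.0637), and Psip1 (0.65), the chromatin reader that ties MLL to its targets, rose too. Kmt2a, the MLL1 gene, rose by 0.46. The H3K27 demethylase genes Kdm6b and Kdm6a fell by 0.63 and 0.39, as did Ash2l (-0.58), a core subunit of the methyltransferase complexes.

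Polycomb genes, which silence Hox clusters, also went both ways. Of 12 genes of Polycomb repressive complex 2, 5 rose and 4 fell, with a median of 0.18. The shares over all tested genes were 29.8% and 30.9%. Suz12 (0.80), a core subunit, and the accessory genes Phf19 (0.71) and Mtf2 (0.58) rose. Eed (-0.32), another core subunit, fell, as did Aebp2 (-0.27) and Rbbp4 (-0.22). The falls were small: 1 call was left with library size alone, where Aebp2 and Rbbp4 were not called. There were 2 without DMSO replicate 2, DMSO replicate 3 or any single iBRD9 replicate, and Rbbp4 was not called in any of these fits.

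Of 23 genes of Polycomb repressive complex 1, 22 were tested, 9 rose and 5 fell, with a median of 0.13. Here too, 29.8% of all tested genes rose and 30.9% fell. Cbx2, a chromobox reader subunit whose loss shifts the body axis, had 7.50, 6.82 and 5.39 CPM with DMSO and 20.3, 18.8 and 19.9 with iBRD9. Its log2 fold change was 1.58 (SE 0.124, adjusted p = 2.76e-05, edgeR). Pcgf5 (0.85) and Cbx7 (0.80) rose, while Rnf2 (-0.73), the catalytic subunit, Pcgf2 (-0.67) and Scmh1 (-0.55) fell.

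Of 24 listed genes upstream of Hox clusters, for retinoid signalling, Cdx factors, Gdf11, hindbrain factors and boundary proteins, 15 were tested, 3 rose and 6 fell, with a median of -0.12. Among all tested genes 29.8% rose and 30.9% fell. Dhrs3, a retinal reductase that limits retinoic acid, fell from 23.3 ± 1.04 to 2.76 ± 0.484 CPM (SD, n = 3), a log2 difference of -3.07 (SE 0.129, adjusted p = 2.16e-06, edgeR). The retinoic acid receptor gene Rarg (-0.92) and the synthesis gene Aldh1a3 (-0.67) fell, and the receptor gene Rara (0.44) rose. Another synthesis gene, Aldh1a1, rose by 2.11 (edgeR adjusted p = 0.000363) at low counts, 6, 7 and 5 with DMSO and 34, 26 and 27 with iBRD9. Egr2, of the hindbrain factors, fell at low counts too (log2 fold change -2.38, edgeR adjusted p = 0.00134). Its counts were 19, 41 and 31 with DMSO and 11, 4 and 4 with iBRD9. Gdf11, a TGF-beta family ligand that sets posterior Hox expression in the embryo, rose by 1.20. Cdx1, Cdx2 and Cdx4 were not tested. Cdx1 was detected, with 2, 21 and 14 counts with DMSO and 10, 0 and 4 with iBRD9, but did not pass the test filter. Cdx2 and Cdx4 had 0 counts in every library.

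In a list of 51 other homeobox genes 20 were tested, 7 rose and 3 fell, with a median of 0.28. Cux2 had the largest rise of those named, from 6.98, 6.31 and 6.66 to 30.1, 30.4 and 30.8 CPM (log2 fold change 2.19, adjusted p = 1.27e-06, edgeR), and Lhx6 (1.01) and Vax2 (0.96) rose too. Alx1 (-1.28), Six4 (-0.94) and Cux1 (-0.18) fell. The Cux1 call was lost with library size alone and without DMSO replicate 2, DMSO replicate 3 or any single iBRD9 replicate. All these lists were chosen with earlier results of these data known, and the share of called genes in the whole table, given above, is the level to read them against.

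**Figure D5:**
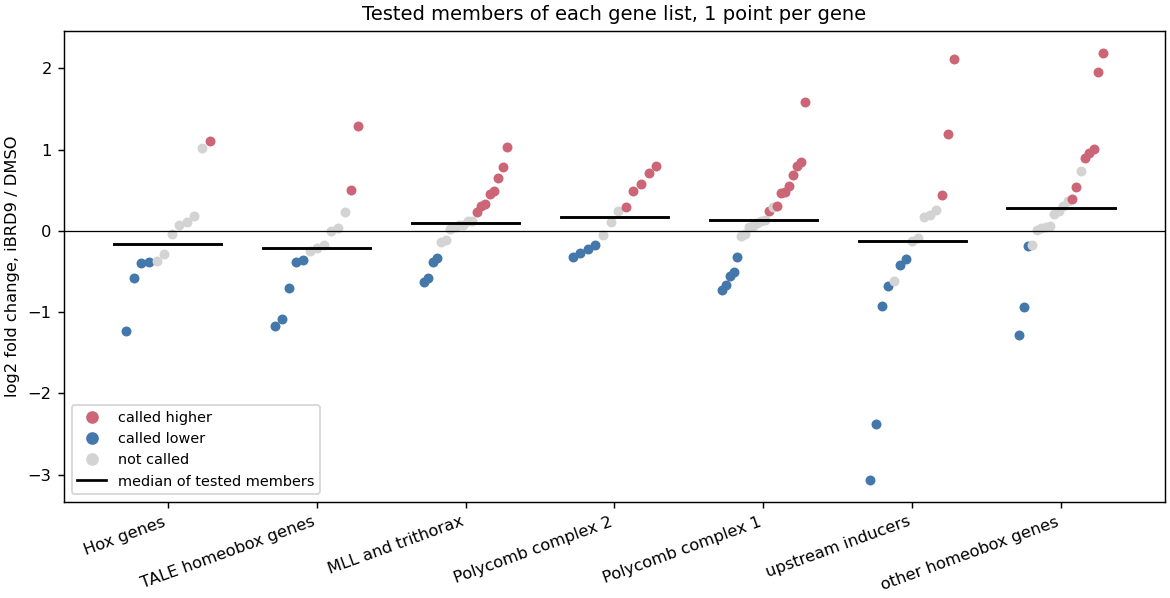
Log2 fold change (vertical axis) of each tested member of the Hox genes and of 6 related gene lists (horizontal axis), 1 point per gene, red for called higher, blue for called lower and grey for not called, with black bars for the medians. Points lie on both sides of 0 in every list, and the Hox median is -0.16.

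Markers of other skin cell types were read beside these results, since dermal fibroblasts also carry Hox patterns. Of 9 dermal fibroblast markers 6 were detected, and their sum was 76.1 to 100.3 CPM with DMSO and 132 to 146 CPM with iBRD9. Most of that was Dcn, at 51.2 ± 7.37 and 120 ± 7.09 CPM (SD, n = 3), while Col3a1 and Twist2 were under 0.2 CPM in both group means and Dpt was at 0. Col1a1 and Dcn were called higher and Col1a2 lower. The Schwann cell list, 6 of 8 detected, summed to 286 to 381 CPM and 88.8 to 91.8 CPM. The endothelial list, 3 of 5 detected and mostly Vwf, summed to 82.8 to 129 and 52.8 to 55.8 CPM, with Vwf called lower and Kdr higher, from 0.941 ± 0.157 to 3.98 ± 1.01 CPM. The leukocyte list, 2 of 6 detected with Ptprc and Tyrobp at 0, summed to 6.12 to 7.76 and 5.48 to 6.43 CPM, with Cd68 called lower (-0.69) and Csf1r higher (2.60). The keratinocyte list, where Krt10 alone was detected of 7, summed to 3.50 to 4.21 and 3.64 to 4.35 CPM. Their part in the Hox results was not tested.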

How the data were processed

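RNA of 6 samples of Melb-a cells was sequenced from poly(A)-selected, random-primed libraries, per the labels' protocols. The authors deposited whole-number counts of reads for each Ensembl gene ID. Per the submitters' processing notes, CASAVA 1.8.2 and Bowtie2 2.4.5 were used with GRCm39. How reads were assigned to genes, with which annotation and strand setting, was not given in the sources used here. All 6 count columns were used.

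Symbols came from GENCODE M21 on an older build for 34490 of 35275 IDs, as did exon lengths and overlaps, so no gene coordinates from it are printed. Library totals set the depth, and a count of 3 was taken as the floor. Counts were tested with edgeR 4.0.16 (filterByExpr with minimum count 10, TMM, robust quasi-likelihood F-test, treatment as the sole term) under R 4.3.3, and p-values were adjusted by Benjamini-Hochberg over 13602 genes. SE is the log2 fold change divided by the square root of F. All tests are two-sided. The procedure was tested on simulated counts in which few genes changed and all had the same dispersion. That setting differs from this table, where 60.7% of tested genes were called.

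Every Hox gene enters the counts, and some genes that the rules take are not reported here. From other lists the rule names up to 3 higher and 3 lower called genes with the largest change at a mean log2 CPM of at least 0, and each tested noncoding cluster gene; others were chosen after their values were seen. Hagh and Haghl matched a symbol prefix of the list of cluster genes only by spelling and were left out. The members and lists were chosen with earlier results of these data known. Alternatives were DESeq2 1.42.0, its size factors, limma-voom (limma 3.58.1), library size alone, no filter, 1 CPM in at least 3 libraries, a stricter threshold of 0.01, the replicate number as a block, and leaving out each library. Promoters are from a RefSeq table on GRCm38.p6. Figures used matplotlib 3.10.9.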

Additional observations from a re-analysis of the deposited data

How the results depend on the processing

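The count of Hox genes called higher, 1, was 2 with limma-voom (Hoxa2 added) and 2 with no filter (Hoxa13 added), and ran from 1 to 3 when 1 library was left out, with 3 without DMSO replicate 1. The count called lower, 4, was 2 with library size alone and 1 at an adjusted p under 0.01, and ran from 1 (without iBRD9 replicate 3) to 4 when 1 library was left out, with 2 without iBRD9 replicate 2. Calls over all tested genes went from 8262 to 10159 without DMSO replicate 1. They went to 6835 without iBRD9 replicate 2 and to 6815 without iBRD9 replicate 3. Detected genes numbered 10 to 13 under the other detection rules and 11 or 12 without 1 library. Scaling by library size alone moved the median log2 fold change of all genes by 0.11, to 0.11, and gave 4995 higher and 3388 lower calls against 4057 and 4205. Genes near no change switched sign: with library size alone Hoxa3 was at 0.072 and Mitf at 0.00157, and without 1 library the ranges were -0.089 to 0.038 for Hoxa3, -0.061 to 0.21 for Hoxa6, -0.10 to 0.38 for Hoxb9, -0.44 to 0.13 for Hoxaas3 and -0.029 to 0.12 for Brd9. The causes were not tested. Same-numbered libraries did not deviate together beyond 0.1 in every pair (correlations 0.118, 0.0599 and 0.0248), and DMSO replicate 3 correlated best with iBRD9 replicate 2. With the replicate block the table had 7937 calls in place of 8262, and Hox genes again 1 higher and 4 lower. At this depth, Hox genes under about 0.1 CPM cannot be told from 0, and Hoxa9 rested on 49 to 168 counts a library.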
